A study of Homo sapiens with 12 samples.

Results

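The zinc finger genes of chromosome 19 were examined in A375, an established human melanoma cell line, after knockdown of ALKBH5, an enzyme that removes m6A (the methyl mark on adenosines inside messenger RNA). The members were all genes of the deposited expression table that lie on chromosome 19 and carry a symbol made of ZNF, digits and at most 1 letter, and 249 of the 29696 genes of the table met that rule. Of the 249, 238 were annotated as protein coding and 10 as pseudogenes. The rule used names and position and no measured value, but the group was chosen for study with earlier results of these data known.

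Most zinc finger genes of this chromosome encode proteins with a row of C2H2 fingers, which read DNA, and many of them also carry a KRAB domain, which recruits TRIM28 (KAP1) and, through it, the histone methyltransferase SETDB1 and HP1 proteins. KRAB zinc finger proteins are best known for silencing transposable elements. The genes arose by repeated tandem duplication and still stand in clusters, and their coding sequence for the fingers lies almost wholly in the last exon, next to the 3'UTR.

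The shALKBH5 cells carried a short hairpin RNA against ALKBH5, their labelled genotype is ALKBH5 knockdown, and the shCtrl cells carried a control hairpin and are labelled as wild type. The hairpins were delivered by lentivirus, a procedure that in the study's methods includes polybrene and selection with puromycin, and the labels name no other treatment. For RNA-seq the methods state a harvest soon after infection, earlier than the end of selection in the general procedure. Whether the sequenced cells were fully selected is therefore not known. The sources do not name which ALKBH5 hairpin was sequenced or whether each line was 1 clone. Each group had 3 input RNA libraries (poly(A) RNA) and 3 libraries of RNA fragments pulled down with an m6A antibody (MeRIP-seq). The study's methods state in general that experiments were repeated independently, but neither they nor the labels say that the 3 sequenced libraries of a group came from separate cultures, so the p-values below measure only the spread between these libraries, which may be technical. Levels are FPKM (fragments per kilobase of transcript, scaled to the size of the library), and the read depth is unknown.

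ALKBH5 itself stood at 3.39, 3.92 and 3.12 FPKM in the shALKBH5 libraries and at 19.3, 17.8 and 17.6 FPKM in the shCtrl libraries (log2 fold change -2.36 ± 0.09 SE, adjusted p = 1.28e-06, limma). SOX10, which marks the melanocytic lineage, had means of 180.6 and 184.2 FPKM in shALKBH5 and shCtrl, while the pigment genes DCT, TYR and TYRP1 were at or near 0 in both groups. Of the other melanocyte markers found, S100B was higher, with means of 82.1 against 32.9 FPKM (1.32 ± 0.05, adjusted p = 1.01e-06), and MITF was called higher with overlapping groups (1.26 against 0.777 FPKM, 0.63 ± 0.23, adjusted p = 0.0475). PMEL, below the filter used for tests, had 0.611 against 0.237 FPKM with no overlap. Summed levels per library were 0.242 to 0.526 FPKM (shALKBH5) and 0.830 to 1.08 FPKM (shCtrl) for the keratinocyte markers found, and 2.91 to 4.06 against 1.78 to 1.89 FPKM for the fibroblast markers, with LUM alone above 1 FPKM. CD68, the 1 leukocyte marker found, had 38.1 to 41.9 FPKM in shALKBH5 and 14.8 to 17.2 FPKM in shCtrl. The part of any of these in the results below was not tested, and in bulk RNA fewer cells of a kind and less RNA per cell cannot be told apart.

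The promoters are shown first, since the clusters of these genes carry different sequence elements there. Of the 249 members, 211 had an entry in the RefSeq promoter table (GRCh38.p14), and the 250 bases before the transcription start were searched on both strands. The ETS-type core, bound by ETS transcription factors, was searched as CGGAAG. The ACTACA element, searched by those letters, is part of the longer sequence known from promoters bound by ZNF143. The CCAAT box with its flank, the kind bound by NF-Y, was CCAATCA, the GC box was GGGCGG, and the TATA box of classical core promoters was TATAAA. They were chosen after the promoter sequences had been read, and in 5 members matches to different motifs overlapped. The 6 promoters below were picked after the motifs had been seen and are examples. They come from 3 clusters, with 1 gene that rose and 1 that fell from each of the first pair of clusters. The last cluster gives 2 that rose, although ZNF787 and ZNF784 fell there. Capitals mark every match to the first 3 motifs, read 5' to 3' on the gene's own strand.

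Cluster 4, on the short arm, is represented by ZNF91 (chr19:23395472-23395721, minus strand), which rose, and ZNF486 (chr19:20166964-20167213, plus strand), which fell.
ZNF91: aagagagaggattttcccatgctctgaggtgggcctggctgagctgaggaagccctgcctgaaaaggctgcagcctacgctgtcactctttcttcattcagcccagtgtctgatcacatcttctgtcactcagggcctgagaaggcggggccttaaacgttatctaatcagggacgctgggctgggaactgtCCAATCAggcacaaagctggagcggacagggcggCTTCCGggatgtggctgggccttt
ZNF486: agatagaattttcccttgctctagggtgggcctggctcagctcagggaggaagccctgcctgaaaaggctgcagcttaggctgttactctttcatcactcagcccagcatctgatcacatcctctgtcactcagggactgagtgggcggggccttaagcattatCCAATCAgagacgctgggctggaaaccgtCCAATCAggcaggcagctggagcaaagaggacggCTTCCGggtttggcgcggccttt

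Cluster 7, on the long arm, is represented by ZNF284 (chr19:44071909-44072158, plus strand), which rose, and ZNF45 (chr19:43935283-43935532, minus strand), which fell.
ZNF284: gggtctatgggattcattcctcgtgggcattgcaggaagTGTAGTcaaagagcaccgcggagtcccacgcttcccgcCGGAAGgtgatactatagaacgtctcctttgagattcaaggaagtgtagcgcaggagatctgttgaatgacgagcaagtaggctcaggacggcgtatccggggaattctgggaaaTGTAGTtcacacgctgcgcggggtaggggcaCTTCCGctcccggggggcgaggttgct
ZNF45: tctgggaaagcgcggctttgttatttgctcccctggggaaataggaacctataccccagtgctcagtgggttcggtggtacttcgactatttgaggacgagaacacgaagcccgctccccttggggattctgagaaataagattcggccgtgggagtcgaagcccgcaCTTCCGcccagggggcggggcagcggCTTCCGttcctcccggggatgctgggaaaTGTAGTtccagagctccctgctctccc

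Cluster 9, at the end of the long arm, is represented by ZNF543 (chr19:57320222-57320471, plus strand) and ZNF814 (chr19:57889038-57889287, minus strand), which both rose.
ZNF543: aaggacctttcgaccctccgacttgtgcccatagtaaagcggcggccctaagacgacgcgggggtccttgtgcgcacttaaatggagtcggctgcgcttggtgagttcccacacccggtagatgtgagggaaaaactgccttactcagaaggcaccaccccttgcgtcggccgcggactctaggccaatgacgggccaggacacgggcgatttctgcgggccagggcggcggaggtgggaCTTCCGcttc
ZNF814: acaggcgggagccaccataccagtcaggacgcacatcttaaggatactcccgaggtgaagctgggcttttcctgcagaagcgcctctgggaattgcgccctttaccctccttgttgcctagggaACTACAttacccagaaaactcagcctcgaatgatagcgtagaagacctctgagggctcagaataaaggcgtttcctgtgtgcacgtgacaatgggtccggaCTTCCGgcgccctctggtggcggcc

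ZNF91 and ZNF486 share a CCAAT box 58 and 57 bases before the start, followed by the ETS-type core read on the other strand (CTTCCG) 24 and 23 bases before it. ZNF284 and ZNF45 share the ACTACA element, read on the other strand as TGTAGT, 58 and 27 bases before the start, beside the ETS-type core. Of the marked motifs, ZNF543 holds the ETS-type core alone, 10 bases before the start, and it also has an unmarked GC box match. ZNF814 holds the ETS-type core 25 bases before the start and an ACTACA element 126 bases before the start. Among the marked motifs, each pair with 1 riser and 1 faller carried the same kinds. The genes were picked after the motifs were seen, and all 28 promoters of cluster 4 held the CCAAT box. The pairs therefore cannot show whether the elements follow the direction of change.

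Over the 211 promoters, 44.5% held the ETS-type core, against 16.8% of all 27305 promoters of the table and 38.3% of 201 promoters of zinc finger genes on other chromosomes. The ACTACA element stood in 26.5% of member promoters, in 7.76% of all promoters and in 13.4% of those of zinc finger genes on other chromosomes. The CCAAT box stood in 27.5% of member promoters, 6.90% of all promoters and 14.9% of those of other zinc finger genes. The GC box stood in 64.0%, 42.3% and 59.2% in that order, and in 58.7% of the other promoters of chromosome 19, so the members were close to both related lists. The TATA box stood in 1.90% of member promoters, 11.1% of all promoters and 4.48% of those of other zinc finger genes. The median ratio of observed to expected CpG was 0.733 in the members, 0.556 over all promoters and 0.814 in zinc finger genes of other chromosomes.

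The elements were split by cluster. The CCAAT box was found in 28 of 28 promoters of cluster 4, 22 of 24 of cluster 3 and 4 of 5 of cluster 1, and in none of the 62 promoters of clusters 2, 5, 6 and 7. The ACTACA element was found in 12 of 20 promoters of cluster 7, 28 of 52 of cluster 9 and 9 of 24 of cluster 6, and in 7 promoters elsewhere. The ETS-type core was present in every cluster, from 1 of 5 promoters in cluster 1 to 3 of 4 in cluster 5.

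**Figure D1:**
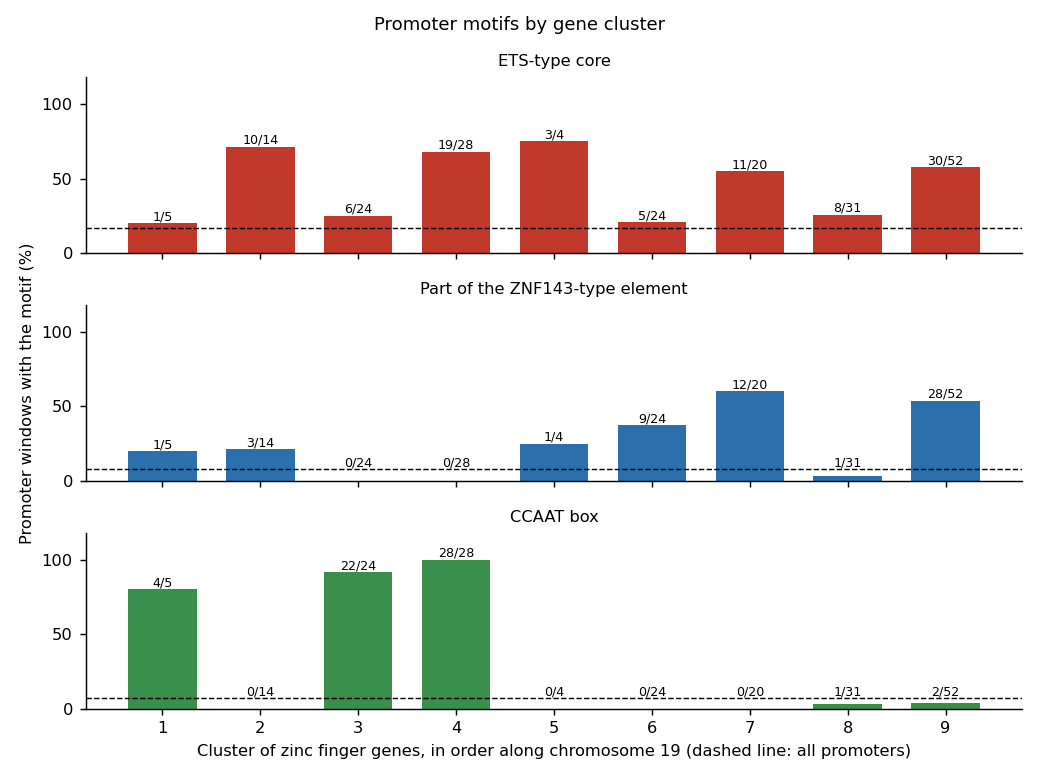
Share of promoter windows (250 bases before the start, both strands searched) that hold each motif, by cluster of zinc finger genes in order along chromosome 19; the fraction above each bar is promoters with the motif over promoters searched, and the dashed line is the share over all 27305 promoters. The CCAAT box fills clusters 1, 3 and 4 and is rare in the others, while the ACTACA element, titled in the middle panel as part of the ZNF143-type element, stands mainly in clusters 6, 7 and 9.

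More zinc finger genes of chromosome 19 rose than fell after ALKBH5 knockdown. Their summed level was 351.6, 341.3 and 341.1 FPKM in the shALKBH5 libraries and 276.3, 293.3 and 278.4 FPKM in the shCtrl libraries, so that every shALKBH5 library lay above every shCtrl library. Of the 249 genes, 113 averaged 0.5 FPKM or more across all input libraries and were tested, and the other 136 fell below that filter (16711 of the 29696 genes of the table did). The tested members had a median level of 1.42 FPKM, against 3.93 FPKM over all genes tested. Among the 113, 58 were higher in shALKBH5 at an adjusted p under 0.05 (51.3%, against 34.7% of all 12985 genes tested), 6 were lower (5.31%, against 26.2%), and 49 were not called.

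The groups of libraries did not overlap for 73 of the 113 genes: every shALKBH5 library was above every shCtrl library for 62 genes (54.9%, against 38.0% of all genes tested) and below them for 11 genes (9.73%, against 29.0%). The median log2 fold change was 0.35 over the 113 genes (quartiles 0.07 and 0.56) and 0.09 over all genes tested. The shCtrl replicate 2 library was the highest of its group, with a median of 1.30 FPKM over the 113 genes against 1.06 and 1.17 FPKM in the other shCtrl libraries and 1.56 to 1.60 FPKM in shALKBH5. Leaving out 1 library at a time gave 41 to 58 genes higher and 5 to 7 lower, and 37 genes were called higher in every fit that tested them. Of these, 31 were tested in every fit, since 1 alternative raised the filter to 1 FPKM.

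Zinc finger genes on the other chromosomes, chosen by the same rule on names, lay between the members and the whole table. Of their 257 genes 158 were tested, 66 were higher (41.8%), 24 were lower (15.2%), and the median log2 fold change was 0.22. Of the 758 other genes of chromosome 19 that were tested, 281 were higher (37.1%) and 207 lower (27.3%), with a median of 0.10. These differences between lists are descriptions and were not tested.

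The split toward higher calls was present at each level of expression. Among the 42 members with a mean of 0.5 to 1 FPKM, 19 were higher (45.2%) and 1 was lower, while 22.3% and 17.7% of all genes of that level were. Between 1 and 2 FPKM 17 of 34 members were higher and 1 lower, against 28.3% and 24.5% of all genes of that level. Between 2 and 5 FPKM 16 of 28 were higher and 3 lower, against 34.2% and 27.4%. Of the 9 members at 5 FPKM or above, 6 were higher and 1 was lower, against 42.0% and 29.4% of all genes at that level.

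**Figure D2:**
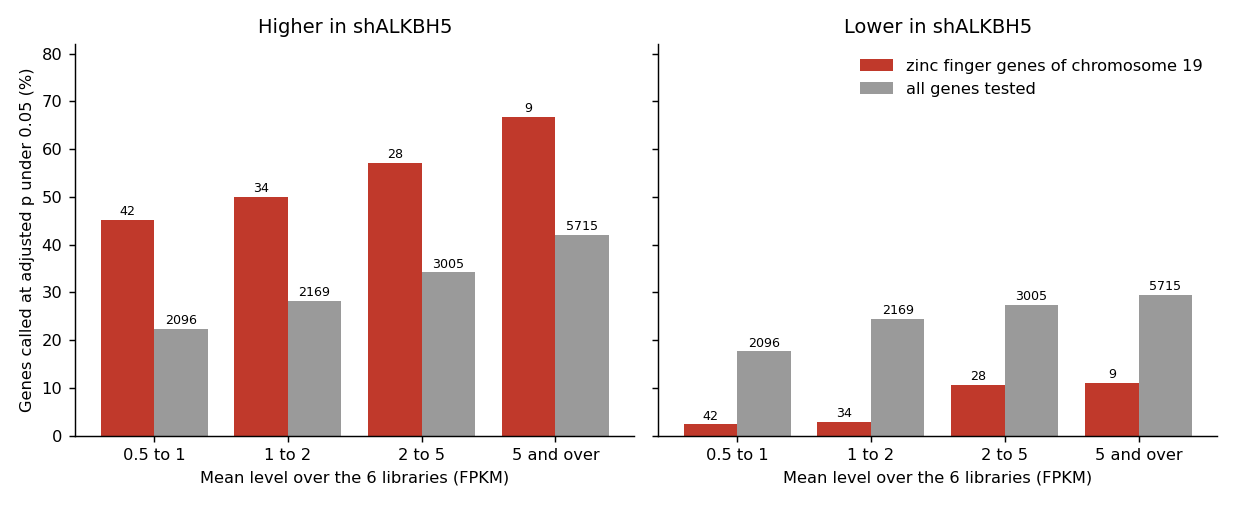
Share of genes called higher (left) or lower (right) in shALKBH5 at an adjusted p under 0.05, by mean level over the 6 input libraries, for the zinc finger genes of chromosome 19 and for all genes tested; the number above each bar is the genes tested in it. In each of the 4 level ranges the share called higher is larger for the zinc finger genes than for all genes (45.2% against 22.3% in the lowest range), and the share called lower is smaller (2.38% against 17.7%).

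The genes that rose most among those with at least 1 FPKM lay in clusters 6, 7, 8 and 9 and, for ZNF526, outside the clusters. ZNF543 (chr19:57320472-57330770) stood at 1.94, 1.60 and 1.59 FPKM in shALKBH5 and at 0.668, 0.793 and 0.777 FPKM in shCtrl. The lowest shALKBH5 value lay above the highest shCtrl value, and the log2 fold change was 1.10 ± 0.13 (SE, adjusted p = 0.000235, limma). ZNF284 (chr19:44072159-44089613) had 1.16, 1.42 and 1.11 FPKM against 0.546, 0.440 and 0.639 FPKM, again without overlap (1.06 ± 0.17, adjusted p = 0.00114). ZNF550 (chr19:57535257-57559863) had 1.97, 1.81 and 2.06 FPKM against 0.804, 1.03 and 1.09 FPKM (0.94 ± 0.13, adjusted p = 0.000573). The ZNF550 groups were also apart, though shCtrl replicate 1 was lower than its fellows.

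ZNF526 (chr19:42220312-42228201), which stands outside the clusters, had a small spread within each group. Its 3 shALKBH5 libraries had 7.00, 6.75 and 6.61 FPKM and its shCtrl libraries 3.50, 3.73 and 3.64 FPKM (log2 fold change 0.89 ± 0.06, adjusted p = 1.35e-05). ZNF875, formerly called HKR1, had 4.65, 5.22 and 4.76 FPKM against 2.51, 2.68 and 3.07 FPKM (0.81 ± 0.09, adjusted p = 0.000199). In both genes the spread within a group was small beside the distance between the groups.

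ZNF580 was the most abundant of the 10 named risers, with 20.5, 19.7 and 19.5 FPKM in shALKBH5 and 11.2, 11.4 and 11.9 FPKM in shCtrl (log2 fold change 0.79 ± 0.05, adjusted p = 7.97e-06). It overlaps ZNF581 and CCDC106 on the same strand, so part of its reads could be shared with them. ZNF581 had 20.2, 20.2 and 20.8 FPKM against 17.4, 16.6 and 16.7 FPKM (0.27 ± 0.04, adjusted p = 0.000908). The neighbours thus stood at like levels in shALKBH5 and at different levels in shCtrl.

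The other named risers were ZNF552 (log2 fold change 0.88 ± 0.09), ZNF587B (0.86 ± 0.09), ZNF880 (0.78 ± 0.12) and ZNF234 (0.74 ± 0.16), with adjusted p of 0.000146, 0.000169, 0.001 and 0.00471. Their values did not overlap between the groups, with shCtrl values of 1.33 to 1.46, 1.99 to 2.11, 0.570 to 0.636 and 0.631 to 0.884 FPKM in that order. In shALKBH5 they ranged from 2.43 to 2.89, 3.35 to 4.08, 1.07 to 1.15 and 1.22 to 1.53 FPKM. ZNF587B overlaps ZNF586 on the same strand, and ZNF552 overlaps ZNF586 on the opposite strand. All 10 named risers were called higher under each alternative fit in which they were tested.

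The largest log2 fold change of all belonged to a gene outside the rule for named genes and is named here after its values were seen. ZNF468 had 1.02, 0.796 and 0.813 FPKM in shALKBH5 and 0.313, 0.369 and 0.215 FPKM in shCtrl (1.30 ± 0.21, adjusted p = 0.00124). Its groups were apart, and it overlaps, on the same strand, ZNF28, which lay below the filter. Reads could be split between the pair.

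Only 6 of the 113 genes fell. ZNF45 (chr19:43912624-43935282), a KRAB zinc finger gene of cluster 7, had 2.43, 2.28 and 2.18 FPKM in shALKBH5 and 3.69, 4.68 and 4.42 FPKM in shCtrl. The groups were well apart (log2 fold change -0.86 ± 0.10, adjusted p = 0.000255), although its neighbours ZNF284, ZNF234 and ZNF226 in the same cluster rose. ZNF787 had 6.38, 6.28 and 6.38 FPKM against 7.91, 7.26 and 8.00 FPKM (-0.28 ± 0.06, adjusted p = 0.00396). ZNF784 had 1.86, 1.99 and 1.85 FPKM against 3.20, 2.39 and 2.39 FPKM (-0.45 ± 0.12, adjusted p = 0.0154). For ZNF787 and ZNF784, both in cluster 9, the groups did not overlap, and shCtrl replicate 1 of ZNF784 stood above the other shCtrl libraries.

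ZNF738 had 1.60, 2.28 and 1.55 FPKM against 2.66, 2.39 and 2.54 FPKM (-0.48 ± 0.15, adjusted p = 0.0243). Its shALKBH5 replicate 2 came close to the shCtrl values, and the call was lost on leaving out shALKBH5 replicate 1 or 3 or shCtrl replicate 1 or 3 (adjusted p from 0.0613 to 0.0773) and without the filter on low values (adjusted p = 0.0702). The pseudogene ZNF812P had 1.11, 1.33 and 1.39 FPKM against 1.80, 1.86 and 1.70 FPKM (-0.46 ± 0.11, adjusted p = 0.0088). ZNF486, outside the rule for named genes, had 0.486, 0.490 and 0.403 FPKM against 0.780, 0.757 and 0.997 FPKM (-0.75 ± 0.17, adjusted p = 0.00632). Its groups were apart as well.

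**Figure D3:**
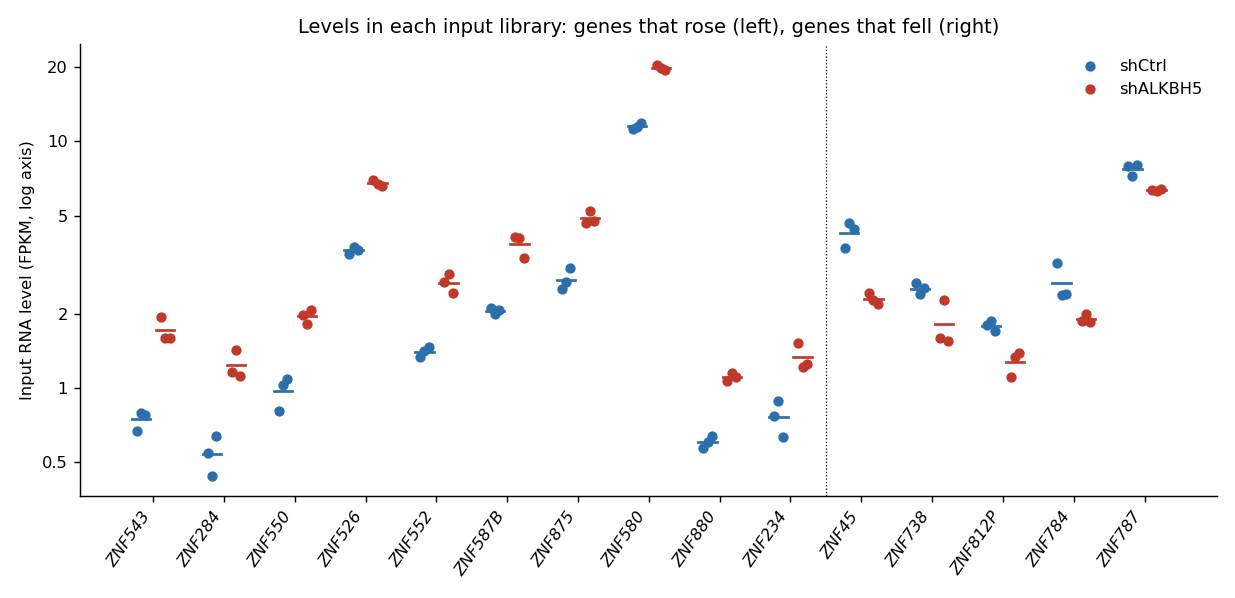
FPKM (log axis) of the 10 named genes that rose and the 5 that fell, with 1 point per input library and a bar at each group's mean; blue is shCtrl and red is shALKBH5, and the dotted line parts risers from fallers. The points of the groups do not overlap in any of the 15 genes, and ZNF738 has 1 shALKBH5 point (2.28 FPKM) close to its shCtrl points (2.39 to 2.66 FPKM).

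Of the 5 most abundant members, ZNF580, ZNF581 and ZNF317 rose and ZNF428 and ZNF358 were not called. ZNF428, the highest, had 30.3, 31.6 and 31.2 FPKM in shALKBH5 and 29.6, 28.4 and 30.5 FPKM in shCtrl (log2 fold change 0.07 ± 0.04, adjusted p = 0.175). ZNF358 had 17.7, 16.9 and 18.1 FPKM against 17.4, 16.2 and 15.9 FPKM (0.09 ± 0.05, adjusted p = 0.163). The groups overlapped in both genes, and ZNF358 was called without shCtrl replicate 1 (0.13, adjusted p = 0.0462). ZNF317, a KRAB zinc finger gene of cluster 2, was higher at 11.7, 12.4 and 11.8 FPKM against 8.74, 9.65 and 8.99 FPKM (0.39 ± 0.06, adjusted p = 0.000673).

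Members with a known role were mostly weak. ZNF91, which represses SVA retrotransposons, had 0.680, 0.661 and 0.638 FPKM against 0.316, 0.505 and 0.362 FPKM and was higher (0.64 ± 0.19, adjusted p = 0.0232). That call was lost on leaving out shALKBH5 replicate 2 or 3 or shCtrl replicate 1 or 3 (adjusted p from 0.0560 to 0.0610). ZNF274, which brings SETDB1 to the 3' ends of zinc finger genes, had 1.83, 1.79 and 1.72 FPKM against 1.65, 1.68 and 1.52 FPKM (0.13 ± 0.09, adjusted p = 0.227).

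ZNF146, a protein made of zinc fingers alone, had 5.97, 4.58 and 4.93 FPKM against 4.11, 5.06 and 3.33 FPKM. The groups overlapped (0.31 ± 0.16, adjusted p = 0.127), and without shCtrl replicate 2 the gene was called higher (0.46, adjusted p = 0.0276). ZNF93, which represses LINE-1 elements, ZNF331, an imprinted gene, and ZNF224 fell below the filter, with group means of 0.249 and 0.265, 0.435 and 0.515, and 0.537 and 0.361 FPKM in shALKBH5 and shCtrl.

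The 136 members below the filter had a median of 0.231 FPKM and were not tested. Every shALKBH5 library was above every shCtrl library for 29 of them (21.3%) and below for 18 (13.2%). Over all 16711 genes below the filter these shares were 10.5% and 7.95%, but their median level was lower, at 0.0352 FPKM, so the lists are not alike in level.

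By position, the members formed 9 clusters of at least 5 genes with neighbouring starts within 1 Mb, which held all but 11 of them. Coordinates follow the deposited table. Cluster 9 (chr19:55476617-58481230), at the end of the long arm, was the largest, with 58 members, of which 45 were tested, 28 were higher (62.2%), 2 were lower, and the median log2 fold change was 0.38 (all genes tested, 34.7% higher and 26.2% lower with a median of 0.09). Of the 21 other tested genes inside its bounds, 12 were higher, 1 was lower, and the median was 0.46. Without this cluster 30 of 68 members were higher (44.1%) and 4 lower, with a median of 0.33.

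Cluster 4 (chr19:19668796-24129968), next to the centromere on the short arm, was split. Of its 36 members 10 were tested, 3 were higher and 2 lower, and of all genes tested 34.7% were higher and 26.2% lower. The log2 fold change was above 0 in 5 of the 10 and below 0 in 5, with a median of -0.18 and quartiles of -0.48 and 0.40. Every shALKBH5 library lay above every shCtrl library for 3 of the 10 and below for 4, while 38.0% and 29.0% of all genes tested were so. The 4 below were ZNF486, ZNF738, ZNF43 and ZNF85, whose log2 fold changes were -0.75, -0.48, -0.38 and -0.46. ZNF43 and ZNF85, named after their values were seen, did not pass the test (adjusted p = 0.0533 and 0.0641). The 10 other tested genes inside these bounds had 2 higher, 2 lower and a median of 0.03. In the remaining 7 clusters 52 members were tested, of which 23 were higher (44.2%, against 34.7% of all genes) and 2 lower (3.85%, against 26.2%). Their medians ranged from 0.28 in cluster 3 to 0.54 in cluster 6, leaving aside cluster 1, which had 1 tested gene, at 0.59.

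**Figure D4:**
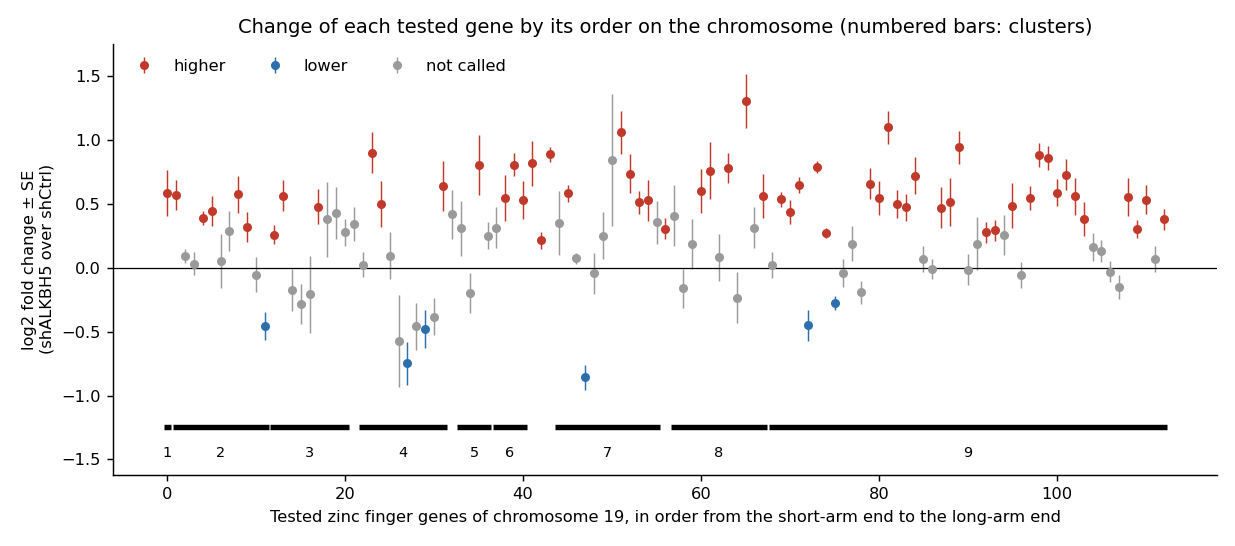
Log2 fold change (shALKBH5 over shCtrl, ± SE) of the 113 tested zinc finger genes in their order along chromosome 19, coloured by call at an adjusted p under 0.05; the numbered black bars mark the 9 clusters. Red points (58 genes higher) appear in every cluster, and the 6 blue points (lower) lie in clusters 2, 4, 7 and 9, with 2 each in clusters 4 and 9.

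The promoter elements were set beside these changes, for which the shares over all genes tested were 34.7% higher and 26.2% lower. Of the 46 tested members with an ETS-type core, 27 were higher (58.7%) and 3 lower, and of the 51 without it 23 were higher (45.1%) and 1 lower. Of the 30 tested members with an ACTACA element, 17 were higher (56.7%) and 1 lower, and of the 67 without it 33 were higher (49.3%) and 3 lower. Of the 18 tested members with a CCAAT box, 5 were higher (27.8%) and 1 lower with a median log2 fold change of 0.15, and of the 79 without it 45 were higher (57.0%) and 3 lower with a median of 0.38. The members with the CCAAT box, 15 of the 18 in clusters 1, 3 and 4, were also weaker, with a median level of 0.753 FPKM against 1.61 FPKM among those tested. Cluster, level and promoter element cannot be told apart here.

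Counting may have moved reads between these genes. Of the 113 tested members, 61 overlap another gene of the table, and the sources do not say whether the counting used strand or how reads that match several paralogs were treated. Among the 61, 34 were higher (55.7%) and 2 lower, and among the 52 that overlap none 24 were higher (46.2%) and 4 lower, with medians of 0.38 and 0.30. Of all genes tested 34.7% were higher and 26.2% lower.

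The partners of KRAB zinc finger proteins in heterochromatin were called lower more often than higher. Of the 24 genes reported from a list of co-repressors and their enzymes, 23 were tested, 4 were higher (17.4%, against 34.7% of all genes), 11 lower (47.8%, against 26.2%) and 8 not called, with a median log2 fold change of -0.19. On leaving out 1 library at a time, 2 to 5 were higher and 10 to 11 lower. TRIM28, the shared KRAB co-repressor, had 109.2, 107.2 and 109.8 FPKM in shALKBH5 and 151.9, 135.5 and 134.7 FPKM in shCtrl. The groups did not overlap (-0.37 ± 0.05, adjusted p = 0.000611). SETDB1, the histone H3 lysine methyltransferase that TRIM28 recruits, had 8.61, 8.50 and 8.35 FPKM against 8.12, 8.29 and 8.79 FPKM (0.01 ± 0.05, adjusted p = 0.82).

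Of the HP1 proteins, which bind the histone mark that SETDB1 makes, CBX5 was lower (-1.33 ± 0.11, adjusted p = 4e-05) and CBX1 was lower (-0.51 ± 0.08, adjusted p = 0.000871), while CBX3 stood at -0.19 ± 0.10 and was not called. CBX5 had 3.76, 3.29 and 3.25 FPKM against 7.66, 10.1 and 8.75 FPKM. Among the genes of DNA methylation, UHRF1 had 6.30, 6.06 and 6.35 FPKM against 26.8, 24.4 and 25.7 FPKM (-2.02 ± 0.05, adjusted p = 3.18e-07), and DNMT1, the maintenance methyltransferase, had 18.6, 18.8 and 18.8 FPKM against 32.7, 33.6 and 32.7 FPKM (-0.81 ± 0.04, adjusted p = 2.6e-06). In all these called genes the shALKBH5 libraries lay below every shCtrl library.

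The subunits of the NuRD deacetylase complex were split. CHD3 (-0.86), RBBP7 (-0.78), HDAC2 (-0.31) and RBBP4 (-0.30) were lower, MTA1 (0.50) and HDAC1 (0.21) were higher, and CHD4 (-0.05) and MTA2 (-0.04) were not called. Of the HUSH silencing complex and its partner, MPHOSPH8 (0.42) and MORC2 (0.19) were higher, and TASOR (-0.01) and PPHLN1 (0.26) were not called. The other genes lower were SUMO2 (-0.74) and DAXX (-0.40). The calls of HDAC2, MORC2 and MPHOSPH8 were each lost in 4 or more of the 6 fits that left out 1 library (adjusted p up to 0.0765, 0.0971 and 0.119).

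The m6A peaks were deposited as 1 list for each group and not by library, so there are no replicates and no test between the groups was made. The shALKBH5 list held 862 peaks in 245 of the 249 members, and the shCtrl list 856 peaks in 241 members. Of the 113 tested members, 112 had a peak in shALKBH5 and 111 in shCtrl (99.1% and 98.2%), against 86.0% and 85.5% of all genes tested. The mean number of peaks per tested member was 3.16 and 3.10, against 2.40 and 2.33 over all genes tested. The median fold enrichment of the pulldown over input, as the peak caller gave it, was 7.35 and 7.66 in members against 5.31 and 5.25 over all peaks. These 2 member medians are values also found in weak peaks. A coding exon peak of ZNF677 had 7.35 and 7.66, with FDR scores (log10) of -0.585 and -0.627. Among the stricter peaks described with the processing, the medians were 8.15 and 8.58 in members against 6.12 and 6.06 over all genes. The part of low level in these medians was not tested.

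By annotation, the 3'UTR held more than any other region. In shALKBH5, 57.3% of member peaks were annotated to the 3'UTR (95% Wilson interval 54.0 to 60.6), against 45.5% of all peaks of that list. The share in coding exons was 22.3% (19.6 to 25.2) against 13.3%, and the share in exons of non-coding RNA 2.20% against 19.1%. In shCtrl the 3'UTR held 59.3% of member peaks (56.0 to 62.6) against 46.2%, and coding exons 20.2% against 13.4%. The intervals of the groups overlapped, and they cover counting error only. Of the 249 members 238 are annotated as protein coding, so a low share in non-coding exons is given by the gene set. That low share raises their other shares, and shares without non-coding exons were not compared. By distance along the genome, introns included, 43.3% (shALKBH5) and 46.8% (shCtrl) of the member peaks of up to 1 kb had their middle within 3 kb of the gene's 3' end, against 50.4% of all such peaks in each list.

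**Figure D5:**
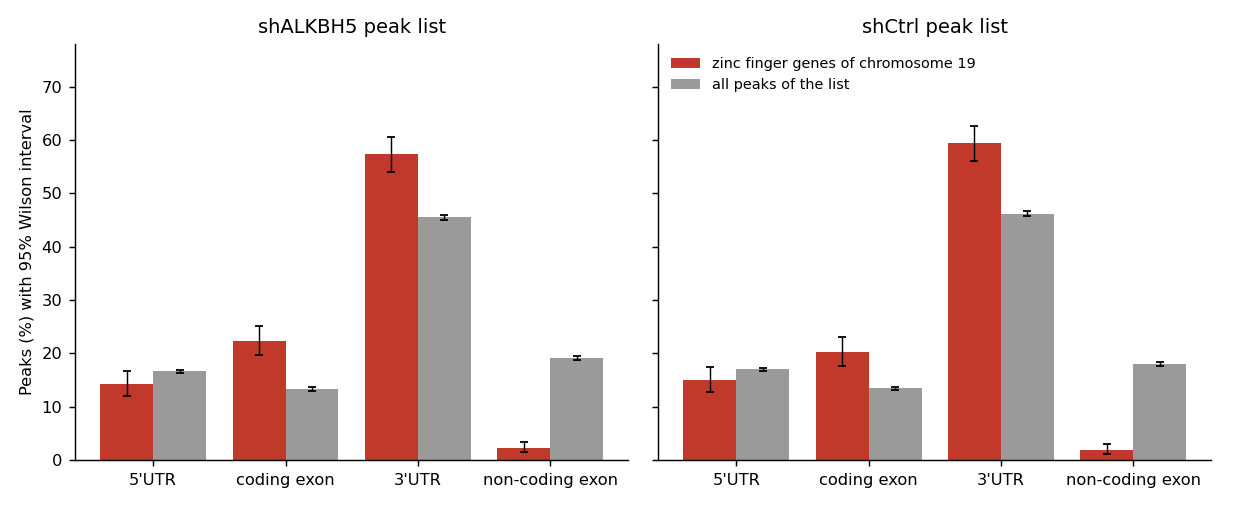
Share of m6A peaks by annotated region in the shALKBH5 list (left) and the shCtrl list (right), for the zinc finger genes of chromosome 19 (862 and 856 peaks) and for all peaks, with 95% Wilson intervals. In both lists the zinc finger genes have larger shares in the 3'UTR and in coding exons than all peaks and a smaller share in non-coding exons. Nearly all of these genes are protein coding, and their smaller non-coding share raises their other shares.

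ZNF814 had the most peaks, with 12 in each list, followed by ZNF90 (8 in shALKBH5 and 10 in shCtrl), ZNF226 (8 and 9), ZNF112 (8 and 8) and ZNF28 (9 and 7). ZNF814 had 1.34, 1.41 and 1.40 FPKM against 0.837, 0.957 and 0.881 FPKM (log2 fold change 0.58 ± 0.11, adjusted p = 0.00217), and ZNF226 rose by 0.51 ± 0.09 (adjusted p = 0.00213). ZNF90 ranged from 0.266 to 0.940 FPKM in shALKBH5 and from 0.746 to 0.974 FPKM in shCtrl, with overlap and no call (-0.57 ± 0.36, adjusted p = 0.206). ZNF112 and ZNF28 were below the filter.

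Peaks of the lists were paired where each was the other's best overlap in the same gene. The 533 pairs of members, in 238 genes, had median fold enrichments of 8.15 in shALKBH5 and 8.94 in shCtrl, and a median log2 ratio of -0.06, against -0.05 over all 30894 pairs. Weak pairs can have this same ratio. A 5'UTR pair of ZNF709 had 8.57 against 8.94, with FDR scores (log10) of -0.847 and -0.901. Whether the member median reflects a difference in scale between the lists was not tested. Enrichment was at least 2-fold higher in shALKBH5 in 56 pairs (10.5%, against 8.69% of all pairs) and at least 2-fold lower in 87 pairs (16.3%, against 9.01%). Every listed peak could be paired, without a limit on FDR or level. The tested members were weaker than all genes tested (median 1.42 against 3.93 FPKM), and the part of few reads in these shares was not tested. Among the 110 pairs in coding exons 27 were at least 2-fold lower (24.5%) and 13 at least 2-fold higher (11.8%), with a median of -0.27, while 9.05% and 7.56% of the 4098 coding exon pairs of all genes were, with a median of -0.05. The 325 pairs in the 3'UTR had a median of -0.05, with 50 at least 2-fold lower (15.4%) and 31 at least 2-fold higher (9.54%). Over all genes 6.27% of the 3'UTR pairs were at least 2-fold lower and 7.00% at least 2-fold higher, with a median of -0.04. The 75 member pairs in the 5'UTR had a median of 0, with 9 at least 2-fold higher and 6 at least 2-fold lower.

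Enrichment was also read by the RNA call of the gene. The 115 pairs of members called higher had a median log2 ratio of -0.17, and 44 of them (38.3%) were higher in shALKBH5. The 111 pairs of members tested and not called had a median of 0.04, with 60 higher. Over all genes called higher the median was -0.08 and 40.8% of the pairs were higher, close to the share in the members, and over all pairs 45.9% were. A pulldown is divided by the input, so the ratio and the RNA change share the input libraries.

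Over all member pairs the log2 ratio ran from -2.97 in ZNF544 to 3.41 in ZNF101, in both cases between peaks of unlike length. The pairs of named genes given next were picked after their values were seen and are examples. In ZNF580 a peak of 569 bases in the 5'UTR (chr19:55641795-55642363), with the same bounds in both lists, had an enrichment of 38.4 in shALKBH5 and 19.8 in shCtrl, while its other pairs had 9.98 against 12.3, 3.87 against 3.34 and 2.07 against 2.38. In ZNF358, whose RNA was not called, a 5'UTR peak starting at 7515292 had 15.9 against 5.98, and another had 2.27 against 2.69. In the 3'UTR, ZNF784 had 39.5 against 47.2, ZNF428 had 39.5 against 32.1, and ZNF45 had 9.30 against 8.75. The enrichment of ZNF45 was thus close between the lists while its RNA fell. Pairs in the 3'UTR of risers went both ways. ZNF526 had 11.4 against 13.7 and ZNF581 had 7.26 against 9.22, while ZNF317 had 8.98 against 7.32 in its longest pair and ZNF875 had 8.03 against 10.1 in one pair and 3.79 against 2.82 in the other.

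The deposited table of differential peaks listed 79 peaks in 65 members, of which 37 were among the 113 tested (32.7%, against 32.7% of all genes tested). Of the 79, 52 lay in the 3'UTR (65.8%, interval 54.8 to 75.3), against 55.6% of all listed peaks, and 15 in coding exons (all listed peaks, 12.3%). None of the 79 lay in non-coding exons, against 13.8% of all listed peaks, which raises the other member shares. Of these 79 peaks, 64 overlapped a pair of the lists above, and several fell on the same pair, which left 60 distinct pairs. Enrichment was higher in shALKBH5 in 27 of the 60 and lower in 33, and it differed at least 2-fold in 12 pairs each way. Over all 30894 pairs, listed as differential or not, 45.9% were higher, 8.69% at least 2-fold higher and 9.01% at least 2-fold lower. The shares over all listed peaks were not computed. Of the 37 tested members with such a peak, 23 were higher in RNA (62.2%) and 3 lower (8.11%), beside 51.3% and 5.31% of all tested members. Of all 4242 tested genes with a listed peak, 39.4% were higher and 28.6% lower.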

How the data were processed

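Input poly(A) RNA and m6A-antibody pulldown RNA of shALKBH5 and shCtrl A375 cells were sequenced, with 3 libraries of each kind per group, and groups were taken from the sample titles. The authors deposited FPKM per gene for the 6 input libraries; aligner, counter and annotation are not given in the sources used here, and low values show no step of 1 read, so depth is unknown. The submitters' processing notes name the build mm10, but gene starts lay within 1 kb of RefSeq GRCh38.p14 starts for 191 of 248 matched members, and coordinates are read as GRCh38. The deposited peak lists give the fold enrichment of pulldown over input (a ratio) and log10 p and FDR (used as a score), with peak spans that include introns; the peak caller is not given in the sources used here. Columns of the authors' own comparisons (fold changes, p-values, FDR and calls) were not used.

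Levels were tested with limma 3.58.1 (R 4.3.3; lmFit and eBayes with a trend, two-sided) on log2(FPKM + 0.1), over all genes that averaged 0.5 FPKM or more, with Benjamini-Hochberg adjustment over all 12985. The study named a count test, which FPKM do not allow. Fold changes are on the log2(FPKM + 0.1) scale and understate changes of low genes. With 3 libraries against 3, an exact two-sided permutation test of single genes cannot go below p = 0.1, so it gave no calls. The fit was checked on simulated data. Named genes were the 10 that rose and up to 10 that fell most (adjusted p under 0.05, groups apart, at least 1 FPKM in the higher group; 5 fell so), the 5 most abundant, 6 with a known role, the 5 with most peaks, ALKBH5 and the co-repressor list, of which 1 gene is not reported here and was left out of its counts. Members and lists were chosen with earlier results of these data known. Peaks overlapped where they shared at least 1 bp on the same strand (bedtools 2.31.1), and a stricter set kept peaks enriched 2-fold or more with an FDR up to 0.01. Of several promoter entries of a gene the first was used. Marker lists covered melanocyte, melanoma line, keratinocyte, fibroblast, leukocyte and endothelial genes; of the melanoma line list, AXL had means of 46.1 and 80.4 FPKM in shALKBH5 and shCtrl, NGFR 5.66 and 34.7 FPKM and SOX9 0.391 and 0.898 FPKM, and the summed endothelial markers stayed between 0.222 and 0.353 FPKM.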

Additional observations from a re-analysis of the deposited data

How the results depend on the processing

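Of 738 recomputed values, 689 kept their side of the threshold, with their direction where called, or, for counts and shares, stayed close to the reported value. No called change reversed, 31 values lost and 7 gained a call for a single gene, and 11 counts or shares moved. Genes not called could change sign, as SETDB1 did when 1 library was left out (log2 fold change from -0.01 to 0.05). The 31 lost calls belonged to ZNF738, ZNF91, HDAC2, MORC2 and MPHOSPH8. Leaving out 1 library at a time gave 41 to 58 members higher, 5 to 7 lower, a median log2 fold change from 0.30 to 0.41, and 2 to 5 co-repressor genes higher and 10 to 11 lower. With a pseudocount of 1 the median was 0.22 (all genes 0.06). Rescaling by median ratios gave 48 members higher and 8 lower with a median of 0.29 (all genes 0.02), and 2 co-repressor genes higher in place of 4. Without a filter on low values, 50 members were higher and 7 lower, and with the filter at 1 FPKM 39 and 5. The same-numbered libraries of the groups did not deviate together (correlations 0.02, -0.05 and 0.06), so the numbers do not pair them; with the replicate number as a block, 44 members were higher and 6 lower, and 2 co-repressor genes were higher. Chosen after seeing the data, leaving out the cluster at the long-arm end left 30 members higher (44.1% of those tested), and leaving out members that overlap another gene left 24 (46.2%); fewer genes were tested, and those left out were called higher more often (62.2% and 55.7%). With stricter peaks the 3'UTR share of member peaks in shALKBH5 was 61.0% and the share overlapping a shCtrl peak 86.7%, against 82.4% for every peak. Under a reciprocal overlap of 50% the shares were 42.1% in shALKBH5 and 42.2% in shCtrl, against 82.4% and 87.6% at 1 bp, since that rule is narrower. The planned thresholds on the differential peak table were not run, because they need the authors' own comparison values. The 136 members below the filter on level were not tested, and the read depth behind them is unknown.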

Other observations

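By gene, 4 members had no peak in the shALKBH5 list (ZNF788P, ZNF56, ZNF541 and ZNF154) and 8 had none in the shCtrl list, among them ZNF56, ZNF541, ZNF154 and ZNF738. ZNF738, which fell in RNA, had 1 peak of 299 bases at its 3' end in shALKBH5 with an enrichment of 11 and an FDR score (log10) of -2.34.

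At 1 shared base 82.4% of shALKBH5 member peaks met a shCtrl peak, against 78.1% of all peaks, and under a reciprocal overlap of 50%, a narrower rule that lowers any share, 42.1% did, against 51.6%.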
